A study of Homo sapiens with 4 samples.

Results

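The genes described here encode RNA polymerase I, its initiation factors and the nucleolar proteins that build ribosomes. They are 52 genes listed by symbol and found in the deposited counts through the GENCODE 29 annotation, out of 58735 gene identifiers in all. RNA was measured in MHCC97-H, an established human hepatocellular carcinoma cell line of wild-type genotype. The treated group comprised 2 libraries from cells kept for 16 h with clofazimine, a riminophenazine antibiotic whose dose is 40 uM in the sample labels and 30 uM in the series description, a difference that no source used here settles. The other group comprised 2 libraries from untreated cells of the same line, with the same 16 h in their labels. Whether replicates came from separate cultures is not stated in the labels, and the p-values therefore reflect library-to-library spread that may be technical.

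RNA polymerase I transcribes the ribosomal RNA precursor in the nucleolus from promoters bound by the factor UBTF and by the selectivity complex SL1, to which RRN3 brings the polymerase. Small nucleolar ribonucleoproteins (snoRNPs) guide the modification of this precursor, the small-subunit processome folds and cuts its early part, and a separate set of assembly factors builds the large subunit. Tumour cells are known for enlarged nucleoli and high output of this pathway.

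Total counts were 13543437 and 16318759 in the clofazimine libraries and 16429147 and 16860578 in the untreated libraries. A count of 0 allowed a level of up to 0.233 CPM (counts scaled by TMM, the trimmed mean of M values, and brought to a common library size), taking 3 counts as the floor and covering counting error only. Of 11 hepatocyte and liver cancer markers, ALB, AFP, APOB, TTR and FGB had 0 counts in all 4 libraries, and the summed level of the list was 1.87 and 2.49 CPM in clofazimine libraries, against 8.56 and 10.9 CPM in untreated libraries. The liver markers of the labelled cell type were therefore absent or low in these libraries, whereas 5 epithelial markers, mostly KRT8 and KRT18, summed to 1786 and 2023 CPM with clofazimine and to 1668 and 1946 CPM untreated. Of these 5 markers 1 was called higher and 2 lower, among them CDH1 at 16.1 and 15.2 CPM with clofazimine and 42.2 and 47.3 CPM untreated. The leukocyte list summed to 18.7 and 21.0 CPM with clofazimine and to 34.1 and 41.0 CPM untreated, mostly CD14, with PTPRC and LYZ at 0. The endothelial list summed to 5.98 and 5.77 against 25.4 and 32.8 CPM, mostly PECAM1, with KDR at 0. In the leukocyte, endothelial and liver lists 2 genes each were tested, and all of them were called lower. The fibroblast list summed to 145 and 123 CPM with clofazimine and to 112 and 115 CPM untreated, mostly COL1A1, and of its 4 tested members 1 was called higher and 3 lower, with a median log2 fold change of -1.87. The nuclear long noncoding RNAs MALAT1, NEAT1 and KCNQ1OT1, read here as a sign of RNA quality, summed to 2391 and 2056 CPM with clofazimine and to 1474 and 1449 CPM untreated, and all 3 were called higher; MEG3, the other RNA of that list, was at 0. The part of these shifts in the results below was not tested.

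After clofazimine, most of the ribosome biogenesis genes were higher. All 52 passed the filter on low counts, and 34 were called higher and 4 lower by edgeR's quasi-likelihood test at an adjusted p under 0.05, with 14 not called. The 34 higher members were 65.4% of the 52, and over all 16388 genes tested 29.5% were called higher. The 4 lower members, POLR1A, UBTF, PES1 and PPAN, were 7.69% of the 52, and 30.4% of all genes tested were called lower. Without untreated replicate 1 or without untreated replicate 2 the lower members were 2, and correcting for exon length and GC left 1. The median log2 fold change was 0.58 over the members and -0.03 over all genes, and single members lay between -1.20 and 2.98. Of the 14 members not called, 11 had a fold change above 0, of which 6 were below 0 with library totals as the scale, and 3 had one below 0. Summed over the 52 genes, the level was 6349 and 6935 CPM in clofazimine libraries, against 4278 and 4063 CPM in untreated libraries.

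Changes of 2-fold or more were called upward in 12 members, TAF1A, TAF1D, NPM1, UTP14A, UTP18, DDX10, DDX47, LTV1, RRP1, GNL2, GNL3 and BRIX1, and downward in POLR1A. Over all genes, 10.5% were called higher by 2-fold or more, and the share called lower by that much was not counted. Both clofazimine libraries lay above both untreated libraries in 41 members, against 39.2% of all genes tested, and below them in 4 members, against 41.6% of all genes. CPM is a share of the counted reads and gives no amount of RNA per cell, and in bulk RNA fewer cells of a type and less RNA per cell cannot be told apart. With library totals in place of TMM the median of all genes shifted by -0.17, and 30 members were then called higher and 5 lower, where 22.8% of all genes were called higher and 38.1% lower.

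**Figure D1:**
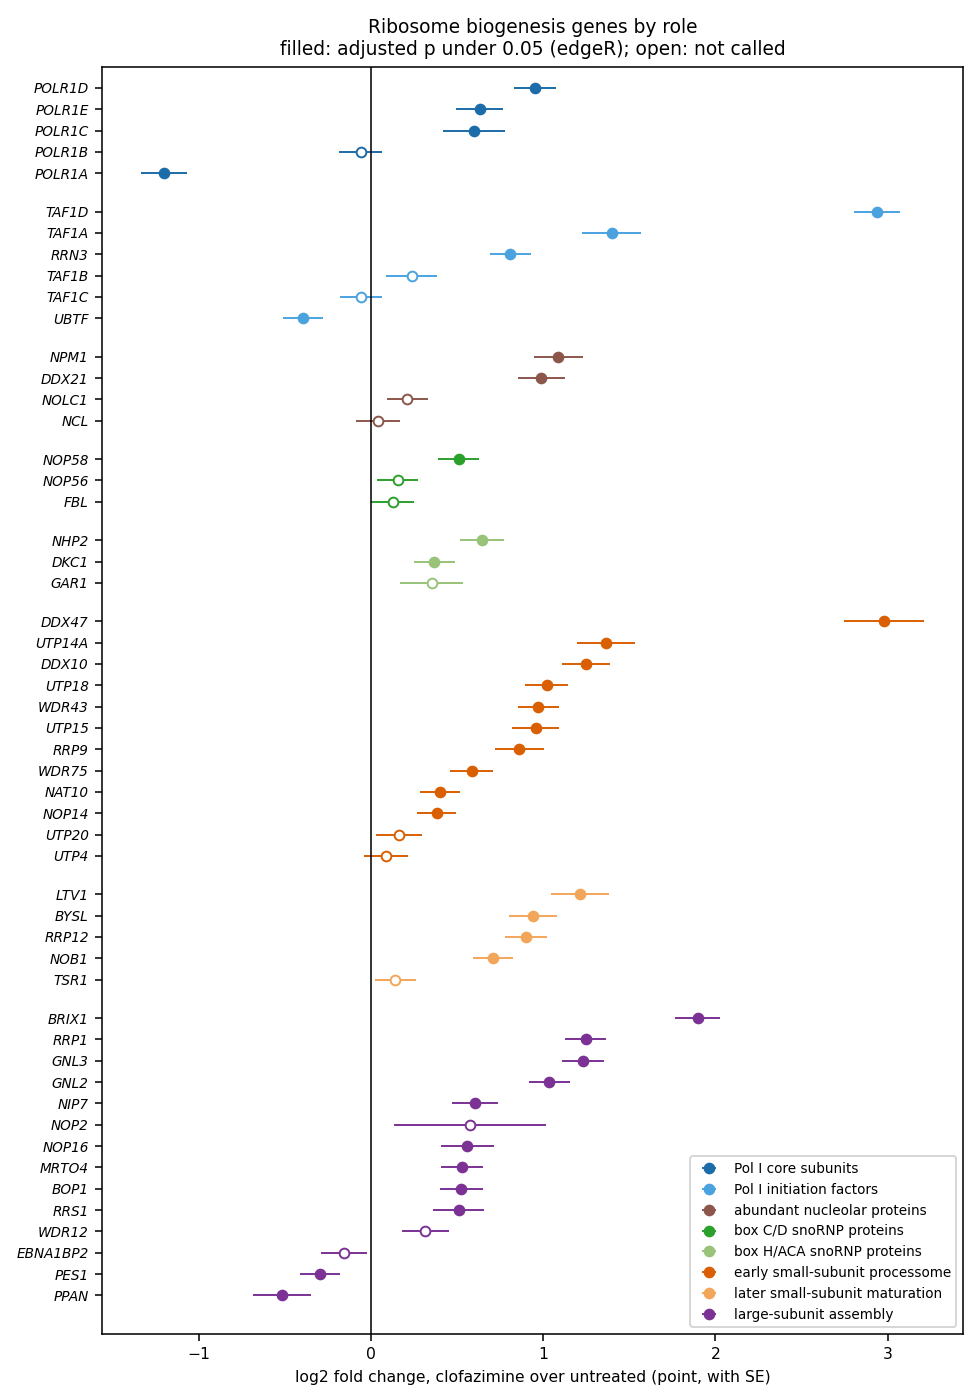
Log2 fold change of each of the 52 members, clofazimine over untreated (horizontal axis), grouped by role, with bars of 1 SE and filled points where edgeR's adjusted p was under 0.05. The points run between -1.20 for POLR1A and 2.98 for DDX47, and 34 filled points lie right of 0 and 4 left of it.

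The sequences before the starts of these genes were read for short letter patterns that are common in promoters of housekeeping and growth genes. RefSeq promoter sequences (GRCh38.p14, 250 bases before to 50 bases after an annotated start) were matched by symbol for 46 of the 52 members, in 57 promoters. The E-box CACGTG, which reads the same on both strands, stood in a promoter of 19 of the 46 members (41.3%), against 12.6% of the 10788 tested genes with a promoter and 8.77% of all 27305 genes in the table. Counted by promoter, the E-box stood in 35.1% of the members' promoters, against 9.37% of those of tested genes and 7.26% of all. CCGGAAG, the core of many ETS-family sites, was found on either strand in 21 of the 46 members (45.7%), against 21.4% of tested genes. The GC box GGGCGG was found in 32 of the 46 members (69.6%), against 76.4% of tested genes, also on either strand; matches of different patterns may share bases. These counts are descriptions of letters, and binding was not measured. Among members with an E-box promoter 12 of 19 were called higher and 1 lower, with a median log2 fold change of 0.58. Among those with a promoter but no E-box 17 of 27 were called higher and 3 lower, with a median of 0.60. All genes tested, whatever their promoter, had 29.5% called higher and 30.4% lower.

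Promoters of 4 called members are given to show where the E-box lies, namely the 2 called E-box members with the highest fold changes (UTP14A and GNL3) and the 2 called ones with the lowest (NOP14 and PES1). Each runs 5′ to 3′ on the gene's own strand with the E-box in capitals. They lie at chrX:129905914-129906213 (UTP14A, plus strand), chr3:52685782-52686081 (GNL3, plus strand), chr4:2963357-2963656 (NOP14, minus strand) and chr22:30591861-30592160 (PES1, minus strand).
UTP14A: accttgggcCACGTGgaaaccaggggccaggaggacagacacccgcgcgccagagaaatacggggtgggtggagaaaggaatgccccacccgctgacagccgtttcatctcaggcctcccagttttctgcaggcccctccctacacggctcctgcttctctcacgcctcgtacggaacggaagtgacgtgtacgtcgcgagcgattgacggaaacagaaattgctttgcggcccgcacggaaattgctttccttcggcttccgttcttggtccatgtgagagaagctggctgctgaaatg
GNL3: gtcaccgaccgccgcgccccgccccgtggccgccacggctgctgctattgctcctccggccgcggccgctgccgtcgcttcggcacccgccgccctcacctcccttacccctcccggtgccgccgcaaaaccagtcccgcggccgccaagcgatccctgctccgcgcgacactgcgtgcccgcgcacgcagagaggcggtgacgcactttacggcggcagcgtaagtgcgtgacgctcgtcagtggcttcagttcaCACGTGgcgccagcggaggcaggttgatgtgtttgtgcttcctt
NOP14: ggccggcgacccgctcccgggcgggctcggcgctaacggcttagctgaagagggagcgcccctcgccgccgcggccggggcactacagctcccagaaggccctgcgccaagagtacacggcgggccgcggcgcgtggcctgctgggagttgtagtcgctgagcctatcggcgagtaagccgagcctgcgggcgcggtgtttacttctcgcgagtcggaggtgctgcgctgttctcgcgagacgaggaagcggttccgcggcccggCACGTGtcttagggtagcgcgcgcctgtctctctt
PES1: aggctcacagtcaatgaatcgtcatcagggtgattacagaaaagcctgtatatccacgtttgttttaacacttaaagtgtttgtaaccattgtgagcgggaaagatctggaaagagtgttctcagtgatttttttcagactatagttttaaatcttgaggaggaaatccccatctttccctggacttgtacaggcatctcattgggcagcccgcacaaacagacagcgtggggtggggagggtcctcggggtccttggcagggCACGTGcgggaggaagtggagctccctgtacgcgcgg
In UTP14A the E-box began at base -241, with the annotated start base counted as 0. In GNL3, NOP14 and PES1 it lay downstream of the start, beginning 6, 15 and 13 bases past it. The same hexamer thus stood in promoters of genes that were higher and of 1 that was lower after clofazimine.

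Within RNA polymerase I itself the subunits did not move alike. Of 5 core subunits, POLR1C, POLR1D and POLR1E were called higher, POLR1A was called lower and POLR1B was not called. Calls over all genes tested were 29.5% higher and 30.4% lower. POLR1A (chr2:86020216-86106155, GRCh38), the largest subunit and part of the catalytic centre, had 36.1 and 29.1 CPM in clofazimine libraries, against 77.6 and 71.7 CPM in untreated libraries. Both clofazimine libraries were well below both untreated ones. POLR1A thus fell 2.30-fold (log2 fold change -1.20 ± 0.13 SE, adjusted p = 1.27e-06), and it was the lowest fold change among the 52 members. Correcting for exon length and GC content gave a log2 value of -0.74 (adjusted p = 1.01e-05).

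POLR1D, a small subunit that RNA polymerases I and III share, had 86.6 and 101 CPM with clofazimine, against 48.1 and 48.9 CPM untreated. Its groups did not overlap, and it rose 1.93-fold (log2 0.95 ± 0.12, adjusted p = 6.23e-06). POLR1C, its partner in both polymerases, averaged 25.7 ± 7.83 CPM with clofazimine and 17.0 ± 0.991 CPM untreated (SD, n = 2 libraries in each group here and below). Its 2 clofazimine libraries differed more from each other than its untreated ones, and its log2 fold change of 0.60 (adjusted p = 0.00903) became 0.25 (adjusted p = 0.213) without clofazimine replicate 2 and 0.52 (adjusted p = 0.0736) without untreated replicate 1. With no filter on low counts its adjusted p was 0.0790. POLR1E, which belongs to a dimer of the polymerase that aids initiation and elongation, rose 1.55-fold (log2 0.63 ± 0.14), and without untreated replicate 2 the value was 0.47 with an adjusted p of 0.0550. POLR1B, the other large catalytic subunit, averaged 49.2 ± 2.39 CPM with clofazimine and 51.3 ± 5.91 CPM untreated, and its libraries overlapped (log2 -0.06 ± 0.13, adjusted p = 0.700). Summed, the 5 subunits had 238 and 256 CPM with clofazimine and 230 and 212 CPM untreated.

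Initiation factors differed by complex member. TAF1D (chr11:93729948-93784391), a subunit of SL1, had 362 and 386 CPM in clofazimine libraries, against 51.1 and 46.3 CPM in untreated libraries. No library of one group came near the other group. TAF1D rose 7.67-fold (log2 2.94 ± 0.13, adjusted p = 4.43e-11). The 6 initiation factors summed to 700 and 727 CPM with clofazimine and to 361 and 348 CPM untreated, and most of that difference lay in TAF1D. The gene holds 8 snoRNA genes on its own strand, and the counts at those snoRNA genes were 58 and 66 with clofazimine and 5 and 4 untreated. CEP295, MED17 and C11orf54 overlap TAF1D on the opposite strand, with log2 fold changes of -0.40, 0.93 and -0.17, and the most abundant of them, CEP295, had 30.5 and 22.2 CPM with clofazimine and 35.9 and 33.3 CPM untreated. Of TAF1D's annotated exon bases 11.2% are shared with small RNA genes on its own strand. Its protein-coding transcripts cover 2366 of its 8420 exon bases, and the part of coding transcripts in its rise was not tested.

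The other SL1 subunits had smaller fold changes than TAF1D. TAF1A averaged 31.1 ± 5.52 CPM with clofazimine and 11.8 ± 2.24 CPM untreated and rose 2.63-fold (log2 1.40 ± 0.17, adjusted p = 4.04e-06). TAF1B and TAF1C were not called, at log2 fold changes of 0.24 ± 0.15 and -0.06 ± 0.12, although TAF1C was called at 0.25 (adjusted p = 0.0367) when exon length and GC content were corrected for. RRN3, the factor that makes the polymerase competent to initiate, averaged 102 ± 6.71 CPM with clofazimine and 57.9 ± 3.41 CPM untreated and rose 1.75-fold (log2 0.81 ± 0.12, adjusted p = 2.53e-05). Its annotated pseudogene RRN3P1 was called higher, at 10.5 and 13.0 CPM with clofazimine and 4.68 and 4.13 CPM untreated, and RRN3P3 was not called, at 1.48 and 1.77 CPM with clofazimine and 3.14 and 2.49 CPM untreated. How reads of near-identical copies were counted is not stated.

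UBTF, the HMG-box protein that coats active ribosomal DNA, had 93.1 and 90.4 CPM with clofazimine, against 125 and 115 CPM untreated. Both clofazimine libraries were below both untreated ones, and the gene fell 1.31-fold (log2 -0.39 ± 0.12, adjusted p = 0.00840). The call was lost without untreated replicate 1 (log2 -0.35, adjusted p = 0.119) and after correcting for exon length and GC content (log2 -0.05, adjusted p = 0.694). Among the core subunits and initiation factors, the genes called lower after clofazimine were thus the largest subunit and, less firmly, the promoter factor UBTF. The termination factor TTF1, among the other pathway genes described below, was also called lower.

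The abundant nucleolar proteins divided evenly between called and not called. NPM1 (chr5:171387116-171411137), nucleophosmin, a chaperone of ribosomal proteins and histones, had 1254 and 1560 CPM with clofazimine, against 653 and 670 CPM untreated. The groups did not overlap, and NPM1 rose 2.13-fold (log2 1.09 ± 0.14, adjusted p = 8.15e-06). Per kilobase of exon it was the most abundant member, at 368 CPM per kb with clofazimine and 173 CPM per kb untreated. GENCODE 29 lists 45 numbered NPM1 pseudogenes, whose reads could be shared with it.

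NCL, nucleolin, which binds the nascent ribosomal RNA, had 430 and 460 CPM with clofazimine, against 452 and 414 CPM untreated. The libraries of the groups overlapped (log2 0.04 ± 0.13, adjusted p = 0.804). DDX21, an RNA helicase that acts in RNA polymerase I transcription and in freeing snoRNAs from the precursor, averaged 569 ± 10.3 CPM with clofazimine and 286 ± 36.4 CPM untreated and rose 1.99-fold (log2 0.99 ± 0.13, adjusted p = 1.08e-05). NOLC1, a phosphoprotein that shuttles snoRNPs to the nucleolus, was not called, at a log2 fold change of 0.21 ± 0.12, and was called at 0.26 (adjusted p = 0.0319) when exon length and GC content were corrected for.

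**Figure D2:**
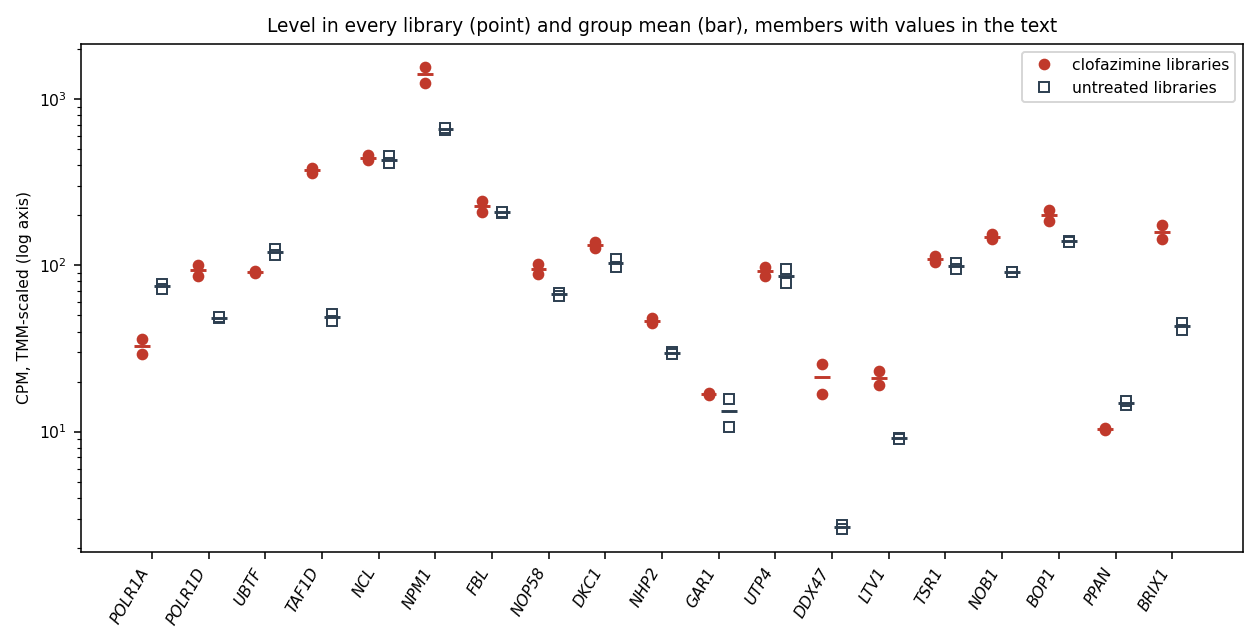
TMM-scaled CPM (vertical log axis) in each library for the 19 members whose library values are given by rule, with clofazimine libraries as filled circles left of untreated libraries as open squares and bars at the group means. TAF1D, DDX47 and BRIX1 show the widest gaps upward, POLR1A the widest downward, and the points of NCL and UTP4 overlap.

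Core proteins of the snoRNPs had small changes. FBL, the methyltransferase of box C/D snoRNPs, had 210 and 244 CPM with clofazimine, against 206 and 210 CPM untreated. The lower clofazimine library nearly coincided with the higher untreated one, and FBL was not called (log2 0.13 ± 0.13, adjusted p = 0.394). NOP58, a scaffold of the same particle, had 89.2 and 102 CPM with clofazimine, against 68.5 and 65.7 CPM untreated. Its groups were separate, and it rose 1.42-fold (log2 0.51 ± 0.12, adjusted p = 0.00159), which missed the threshold without untreated replicate 2 (log2 0.46, adjusted p = 0.0517). NOP56, the other scaffold, was not called at 0.16 ± 0.12. Correcting for exon length and GC content gave 0.25 for NOP58 (adjusted p = 0.0329) and a call for NOP56 at 0.36 (adjusted p = 0.00503).

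In the box H/ACA particle, which carries out pseudouridylation, DKC1 is the catalytic subunit and also part of telomerase. DKC1 had 127 and 139 CPM with clofazimine, against 109 and 97.3 CPM untreated. The groups did not overlap, and DKC1 rose 1.29-fold (log2 0.37 ± 0.12, adjusted p = 0.0145); with library totals the log2 value was 0.20 (adjusted p = 0.160), with no filter the adjusted p was 0.0532, and without untreated replicate 1 or 2 the log2 values were 0.43 and 0.28, with adjusted p of 0.0679 and 0.241. NHP2, an RNA-binding subunit, had 45.1 and 48.0 CPM with clofazimine, against 30.0 and 29.5 CPM untreated. It rose 1.57-fold (log2 0.65 ± 0.13, adjusted p = 0.000362) with no overlap. GAR1, needed for release of the modified RNA, had 16.6 and 17.1 CPM with clofazimine, against 15.8 and 10.6 CPM untreated. Its untreated libraries were far apart, and it was not called (log2 0.35 ± 0.18, adjusted p = 0.109) except without untreated replicate 1 (log2 0.64, adjusted p = 0.0220).

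Early small-subunit processome genes were higher in 10 of 12 cases and lower in none, against 29.5% and 30.4% of all genes tested. Their median log2 fold change was 0.91. Their summed level was 802 and 803 CPM in clofazimine libraries, against 535 and 484 CPM in untreated libraries. Of the subcomplex that binds the precursor as it is made, UTP15, WDR43 and WDR75 rose, at log2 fold changes of 0.96 ± 0.14, 0.97 ± 0.12 and 0.59 ± 0.13. WDR75 was at 0.25 (adjusted p = 0.0719) once exon length and GC content were corrected for. UTP4, of the same subcomplex and also known as cirhin, had 97.5 and 86.5 CPM with clofazimine, against 94.6 and 78.3 CPM untreated. Its libraries overlapped and it was not called (log2 0.09 ± 0.13, adjusted p = 0.561), so members of this subcomplex differed in their calls.

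DDX47 (chr12:12813316-12829981), a DEAD-box RNA helicase, had 25.6 and 16.8 CPM with clofazimine, against 2.74 and 2.60 CPM untreated. The groups were far apart, and it rose 7.89-fold (log2 2.98 ± 0.23, adjusted p = 2.39e-08), the highest fold change of the 52 members. Its untreated values rest on 48 and 46 counts, against 329 and 257 counts with clofazimine. Annotated transcripts of APOLD1 on the same strand run through DDX47. Of the exon bases in DDX47's protein-coding transcripts 99.7% are shared with another gene, and of all its exon bases 36.5% are. APOLD1 was called lower, at 8.16 and 6.49 CPM with clofazimine and 27.8 and 26.5 CPM untreated (log2 -1.90 ± 0.17), and no source used here says how reads in shared bases were counted. The part of this sharing in DDX47's values was not tested.

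UTP14A, which in yeast activates a helicase that dismantles the U3 snoRNP, rose 2.57-fold (log2 1.36 ± 0.17, adjusted p = 3.79e-06), at 37.1 ± 2.54 CPM with clofazimine and 14.4 ± 3.74 CPM untreated. DDX10, another DEAD-box helicase of the particle, rose 2.38-fold (log2 1.25 ± 0.14) and UTP18, of the UtpB subcomplex, rose 2.03-fold (log2 1.02 ± 0.12). RRP9, a protein specific to the U3 snoRNP, rose 1.82-fold (log2 0.86 ± 0.14). Smaller rises were called for NOP14, a protein of the processome core, at 0.38 ± 0.12, and for NAT10, the acetyltransferase of small-subunit ribosomal RNA, at 0.40 ± 0.12. Those 2 calls were lost with library totals (log2 0.21 for NOP14 and 0.23 for NAT10, adjusted p = 0.123 and 0.0977) and without either untreated library (0.39 and 0.33 for NOP14, 0.45 and 0.32 for NAT10), and NAT10 was at 0.61 once exon length and GC content were corrected for. UTP20, a long helical-repeat protein, averaged 75.8 ± 13.9 CPM with clofazimine and 67.6 ± 0.856 CPM untreated and was not called (log2 0.16 ± 0.13), although without clofazimine replicate 2 it was called at 0.35.

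Later small-subunit maturation, from the nucleus to the cytoplasm, gave a similar count, with 4 of 5 genes higher and none lower. The shares of all genes tested were 29.5% higher and 30.4% lower. LTV1, an adaptor for export and late assembly, had 19.1 and 23.0 CPM with clofazimine, against 9.13 and 9.06 CPM untreated. Both clofazimine libraries exceeded the untreated ones, and LTV1 rose 2.32-fold (log2 1.21 ± 0.17, adjusted p = 1.25e-05); 34.8% of its exon bases are shared with a gene on the same strand. NOB1, the endonuclease that makes the mature end of the small-subunit ribosomal RNA, had 144 and 154 CPM with clofazimine, against 91.5 and 90.7 CPM untreated. NOB1 rose 1.64-fold (log2 0.71 ± 0.12, adjusted p = 7.29e-05), and its replicates lay close together in both groups.

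BYSL, or bystin, a factor of late nuclear particles, and RRP12, an export factor of the pre-ribosome, rose 1.92-fold and 1.87-fold (log2 0.94 ± 0.14 and 0.90 ± 0.12). TSR1, a GTPase-like factor of the late particle, had 113 and 105 CPM with clofazimine, against 103 and 94.99 CPM untreated. Its clofazimine libraries were only just the higher ones, and it was not called (log2 0.14 ± 0.12, adjusted p = 0.306) except when exon length and GC content were corrected for (log2 0.35, adjusted p = 0.00484).

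Large-subunit assembly had 9 of 14 genes higher, 2 lower and 3 not called, with a median log2 fold change of 0.54. Among all genes tested, 29.5% were called higher and 30.4% lower. BRIX1 (chr5:34915376-34925996), a Brix-domain factor of early large-subunit particles, had 144 and 175 CPM with clofazimine, against 45.1 and 40.7 CPM untreated. The groups did not overlap, and BRIX1 rose 3.72-fold (log2 1.90 ± 0.13, adjusted p = 6.48e-09). RAD1, the gene opposite to it, shares 9.62% of BRIX1's exon bases and was also called higher, at 93.8 and 95.8 CPM with clofazimine and 53.5 and 53.8 CPM untreated (log2 0.82 ± 0.12). No source used here gives the counting strand, so reads of BRIX1 and RAD1 in those bases cannot be told apart. The same limit applies to other members, with larger shares in NHP2 (27.4%), TSR1 (20.8%), NOB1 (20.2%), NIP7 (20.2%), NOP16 (20.0%), EBNA1BP2 (18.8%), POLR1C (18.2%) and NOP14 (17.1%).

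The nucleolar GTPases GNL3, or nucleostemin, and GNL2 rose 2.35-fold and 2.05-fold (log2 1.23 ± 0.12 and 1.04 ± 0.12). GNL3 averaged 218 ± 11.8 CPM with clofazimine and 92.8 ± 4.23 CPM untreated, and the 6 snoRNA genes inside it had 78 and 79 counts with clofazimine and 29 and 27 untreated. RRP1, named for ribosomal RNA processing in yeast, averaged 105 ± 1.60 CPM with clofazimine and 44.3 ± 1.25 CPM untreated and rose 2.37-fold (log2 1.25 ± 0.12). NIP7 and MRTO4, which holds the place of a stalk protein on the young subunit, rose by smaller amounts, at log2 0.61 ± 0.13 and 0.53 ± 0.12. NOP16 and RRS1, a factor that helps recruit an RNA-protein particle to the young subunit, were called at 0.56 ± 0.15 and 0.51 ± 0.15. NOP16 missed the threshold without untreated replicate 2 (0.47) and without clofazimine replicate 2 (0.41), and RRS1 missed it in the same fits (0.43 and 0.38) and with library totals (0.34).

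The PeBoW complex, formed of PES1, BOP1 and WDR12 and needed to process large-subunit ribosomal RNA, was split in its calls. BOP1 had 185 and 216 CPM with clofazimine, against 140 and 139 CPM untreated. Its groups were separate, and it rose 1.44-fold (log2 0.53 ± 0.12, adjusted p = 0.00166). PES1 averaged 66.3 ± 0.931 CPM with clofazimine and 81.3 ± 0.635 CPM untreated and fell 1.23-fold (log2 -0.29 ± 0.11, adjusted p = 0.0356), with both clofazimine libraries below both untreated ones. That call did not survive DESeq2's test (adjusted p = 0.0814), the unfiltered fit (0.0808), leaving out clofazimine replicate 1 (log2 -0.26) or either untreated replicate (-0.32 and -0.30), or correcting for exon length and GC content (log2 -0.02, adjusted p = 0.866). With library totals PES1 was at -0.46. WDR12 was just short of the threshold (log2 0.32 ± 0.14, adjusted p = 0.0538) and passed it without clofazimine replicate 1 (0.49) and with DESeq2's size factors (0.33).

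PPAN, which in yeast joins early large-subunit particles, had 10.6 and 10.3 CPM with clofazimine, against 14.5 and 15.3 CPM untreated. The groups did not overlap, and PPAN fell 1.43-fold (log2 -0.52 ± 0.17, adjusted p = 0.0137). Of its exon bases 59.8% are shared with another gene on the same strand, where GENCODE 29 also annotates the readthrough gene PPAN-P2RY11, and the downstream neighbour P2RY11 was lower too (log2 -0.49 ± 0.18). The call was lost with DESeq2's test (adjusted p = 0.0616), without untreated replicate 2 (log2 -0.49), without clofazimine replicate 2 (-0.49) and once exon length and GC content were corrected for (-0.36). EBNA1BP2, a binding partner in early large-subunit particles, was not called (log2 -0.15 ± 0.13), although it was called lower with library totals (-0.32) and without clofazimine replicate 2 (-0.33). NOP2, a methyltransferase of large-subunit ribosomal RNA, had only 28 and 18 counts with clofazimine and 23 and 16 untreated. No difference was called at these counts (log2 0.58 ± 0.44, adjusted p = 0.268). Of the exon bases in NOP2's protein-coding transcripts 71.1% are shared with annotation on the same strand, and of all its exon bases 54.4% are. AC006064.6, a gene annotated there, had 0 counts in all libraries.

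**Figure D3:**
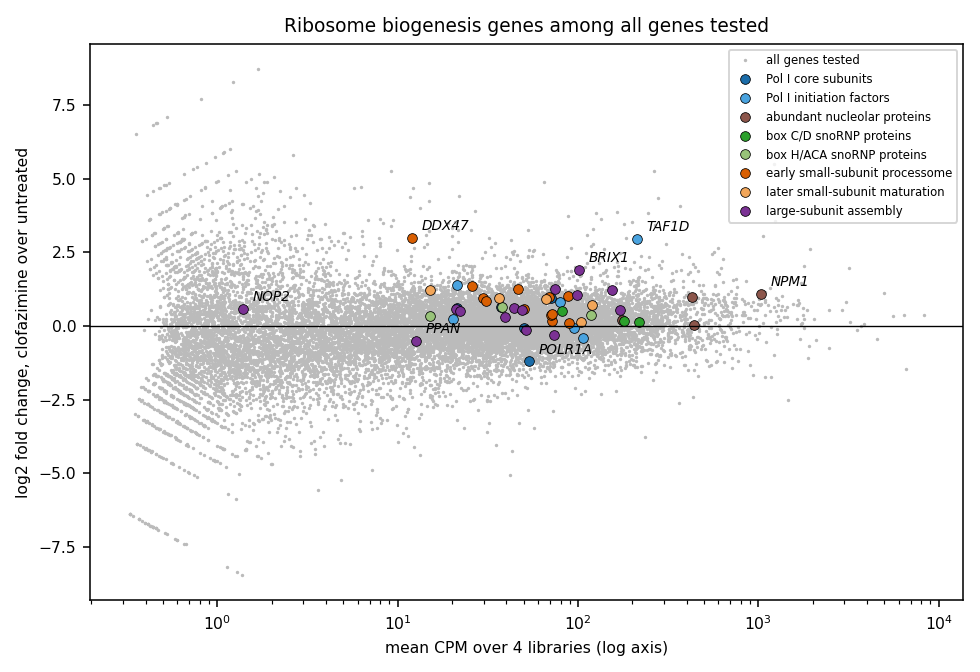
Log2 fold change, clofazimine over untreated (vertical axis), against the mean CPM over the 4 libraries (horizontal log axis) for all 16388 genes tested in grey and the 52 members in the colour of their role. Most members lie above 0 at levels over 5 CPM, with DDX47, TAF1D and BRIX1 highest and POLR1A lowest among them.

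Features of the genes that could bear on their counts were described, and exon length and GC content alone were compared with all genes. The members' median exon length was 4227 bases, with a range of 1510 to 13519, against 4372 bases over all genes tested, and their median GC content was 48.3%, against 48.8%. A gene on the opposite strand overlaps 29 of the 52 members, and 24 of these were called, against 38 of all 52. Over all genes tested 29.5% were called higher and 30.4% lower. Numbered pseudogenes are annotated for 11 members. Overlaps and pseudogenes were not counted for all genes. On their own strand 9 members hold snoRNA genes, and of these 5 were called higher and 1 lower, with a median log2 fold change of 0.37. The 43 members without a snoRNA gene had 29 called higher and 3 lower, with a median of 0.60. In untreated libraries the level per kilobase of exon ran between 0.237 CPM per kb for NOP2 and 173 CPM per kb for NPM1, with FBL at 95.7, NCL at 62.5 and DDX21 at 57.0 CPM per kb.

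Other genes of the pathway, 108 in number and not among the 52, had 63 called higher (58.3%) and 7 lower (6.48%). The shares of all genes tested were 29.5% and 30.4%. The median log2 fold change of the 108 genes was 0.42, with a range of -0.77 to 1.52. By role, 6 of 9 further RNA polymerase I genes were higher and 1 lower, and 27 of 45 further small-subunit genes were higher and 3 lower. Among 46 further large-subunit genes 26 were higher and 3 lower, and among 8 further snoRNP genes 4 were higher and none lower. RSL1D1, a nucleolar protein that binds pre-ribosomes, had 367 and 420 CPM with clofazimine, against 160 and 138 CPM untreated (log2 1.40 ± 0.13). NOL7, a processome protein, had 85.7 and 99.5 CPM with clofazimine, against 34.4 and 31.0 CPM untreated (log2 1.503 ± 0.13). AK6, a nuclear adenylate kinase needed for small-subunit maturation, whose locus overlaps that of TAF9, had 30.9 and 46.1 CPM with clofazimine, against 13.1 and 13.8 CPM untreated (log2 1.52 ± 0.18). In these 3 genes every clofazimine library was above every untreated one.

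The lowest of these other genes were NOP9, IMP3 and TTF1. NOP9, an RNA-binding factor of small-subunit assembly in yeast, had 29.9 and 23.9 CPM with clofazimine, against 44.7 and 46.7 CPM untreated (log2 -0.77 ± 0.14). IMP3, a partner of the U3 snoRNP, had 16.4 and 19.8 CPM with clofazimine, against 29.5 and 30.6 CPM untreated (log2 -0.73 ± 0.15). TTF1, which ends transcription by RNA polymerase I, had 12.2 and 12.3 CPM with clofazimine, against 19.7 and 19.4 CPM untreated (log2 -0.67 ± 0.15). All 3 were called lower, with both clofazimine libraries below both untreated ones.

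The other nuclear polymerases and the ribosomal proteins were read beside the pathway as a description. Shares over all genes tested were 29.5% called higher and 30.4% called lower. The 7 subunits specific to RNA polymerase II had 3 higher and 2 lower, with a median log2 fold change of 0.32 and a range of -1.31 to 0.61, and the lowest of them was POLR2A, the largest subunit, at 221 and 124 CPM with clofazimine and 439 and 417 CPM untreated. The 11 subunits specific to RNA polymerase III had 6 higher and 3 lower, with a median of 0.59 and a range of -1.54 to 0.76, and its largest subunit, POLR3A, was not called (log2 -0.03 ± 0.12). POLR1A and POLR2A were thus both lower after clofazimine, and POLR3A was not called. Of 79 cytosolic ribosomal protein genes all 79 were called higher, with a median of 0.81 and a range of 0.32 to 2.67, under TMM scaling. Medians of the 52 members, the 108 other pathway genes and the ribosomal proteins were thus each above that of all genes. The same held for the subunits specific to RNA polymerases II and III, and no test between the lists was made.

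**Figure D4:**
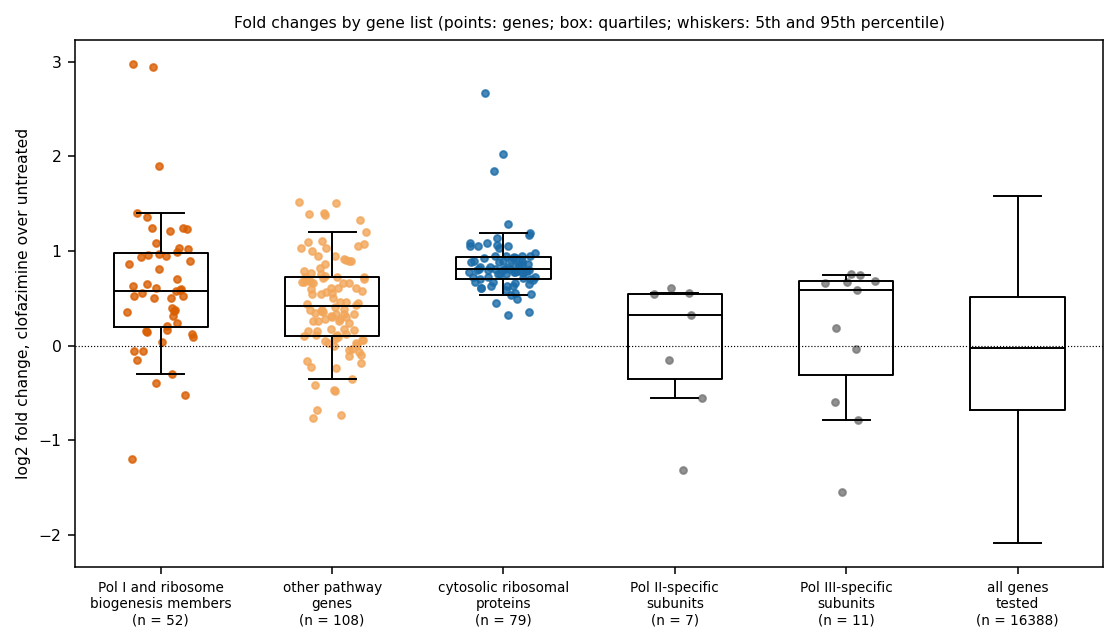
Log2 fold change, clofazimine over untreated (vertical axis), of the genes in each list as points, with boxes at the quartiles, a line at the median and whiskers at the 5th and 95th percentiles; all 16388 genes tested are shown as a box alone. Medians were 0.58 for the 52 members, 0.42 for the 108 other pathway genes, 0.81 for the 79 ribosomal proteins, 0.32 and 0.59 for the subunits specific to RNA polymerases II and III, and -0.03 for all genes.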

How the data were processed

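Polyadenylated RNA was sequenced from 2 clofazimine and 2 untreated libraries. The authors deposited raw counts per gene, per the file headers, for 58735 Ensembl identifiers, all found in GENCODE 29, which gave symbols and coordinates. Per the submitters' processing notes, fastp and GRCh38 were used; aligner, counting program, strand setting and annotation are not given in the sources used here. Control columns were matched to titles that carry Wildtype and the same number.

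Genes were tested with edgeR 4.0.16 (R 4.3.3), by the quasi-likelihood test with no term for the replicate number, after filterByExpr (minimum count 10, minimum total 15) and TMM scaling (factors 0.936 to 1.07). P-values were adjusted by Benjamini-Hochberg over 16388 genes, and calls were made under 0.05. Levels are CPM on TMM-scaled library sizes; ± on a log2 fold change is its SE. The biological coefficient of variation was 9.91%. Chi-square per degree of freedom between replicates was 12.6 for clofazimine and 6.40 for untreated libraries, so neither pair differed by counting noise alone.

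Members and lists were chosen with earlier results of these data known. Library values are given for the highest and lowest fold change and the highest level in each role, and for the 3 highest and 3 lowest called other pathway genes of at least 5 CPM; POLR2A, POLR3A and the overlapping neighbours were named after their values were seen, and NOP9 and ZNHIT6 were moved between role lists then. Alternatives were DESeq2 1.42.0 (size factors, Wald test), library totals, no filter, 1 CPM in 2 libraries, limma-voom (limma 3.58.1), a replicate block, leaving out each library, and a correction for exon length and GC (mgcv 1.9.3).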

Additional observations from a re-analysis of the deposited data

How the results depend on the processing

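Over 12 alternative settings 26 of the 38 called members kept their call in each, 12 lost it in at least 1, and 8 uncalled members gained one in at least 1. No called member changed sign. With library totals the median log2 fold change was 0.42 for the members and 0.25 for the other pathway genes, against 0.58 and 0.42 with TMM. DESeq2's Wald test called 2 members lower and the exon length and GC correction 1, against 4. Leaving out 1 library at a time, 27 to 35 members were called higher and 2 to 4 lower, with medians of 0.49 to 0.68; 27 were higher without untreated replicate 2, and 2 were lower without either untreated replicate. For the other pathway genes the same fits gave 48 to 70 higher, 4 to 7 lower and medians of 0.40 to 0.48; 4 were lower without either untreated replicate. With a replicate block, 34 members were higher and 4 lower, with a median of 0.57, and no member's call differed. The numbers were not treated as pairs because no label says that they mark a shared culture or day. Deviations of same-numbered libraries correlated at -0.046, a single value that cannot show whether libraries were paired. Among uncalled members the sign turned with library totals for NCL (-0.13), FBL (-0.040), NOP56 (-0.011), UTP4 (-0.078), UTP20 (-0.0026) and TSR1 (-0.024), and with the length and GC correction for TAF1B (-0.050) and TAF1C (0.25, called higher at an adjusted p of 0.0367). Leaving out 1 library gave log2 values of -0.19 to 0.043 for POLR1B, -0.16 to 0.041 for TAF1C, -0.038 to 0.11 for NCL, -0.056 to 0.21 for UTP4, -0.015 to 0.35 for UTP20 and -0.33 to 0.031 for EBNA1BP2. Some settings hold fewer libraries or test more genes, and the cause of these differences was not tested in any setting. A fit that leaves 1 library in a group assumes that it varies like the other group. Counts were few for NOP2, with 85 in all, and for DDX47 in untreated libraries. Both genes share most exon bases of their protein-coding transcripts with same-strand annotation (71.1% in NOP2 and 99.7% in DDX47). The part of depth and the part of this sharing in those low counts were not tested.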
